A study of Homo sapiens with 24 samples.

Results

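The nuclear, protein-coding genes whose GENCODE 29 symbols begin with NDUFA, NDUFB, NDUFC, NDUFS, NDUFV or NDUFAF number 48 of the 58381 gene IDs in the deposited count table. They encode subunits and assembly factors of respiratory complex I. By role they are 7 core subunits, 9 accessory subunits of the matrix arm, 20 accessory subunits of the membrane arm, the acyl carrier NDUFAB1, 8 assembly factors named NDUFAF and 3 genes that carry an NDUF symbol without encoding a part of complex I. Genes entered by symbol and gene type, without the use of a measured value, and 62 other NDUF symbols, nearly all of pseudogenes, were left out because they are not protein-coding.

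Established cell lines from human bladder cancers, 4 in number (T24, 5637, CLS-439 and TCC-SUP), were the source of the RNA sequenced. Cultures given 75 µM mitomycin C (MMC), a drug that crosslinks DNA, for 1 h were set against untreated cultures (labelled NT) of the same line, and RNA was taken 15 h after treatment. Each of the 8 groups has 3 libraries, numbered 1, 3 and 4, which the submitters call biological replicates, so 24 libraries in all. Each line stems from 1 tumour, and the replicates are cultures of that line. One label of the MMC samples has the letters MCC, taken here for MMC because the protocol names mitomycin C.

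Complex I is the first enzyme of the mitochondrial respiratory chain. It oxidises NADH in its matrix arm, passes the electrons along iron-sulphur clusters to ubiquinone, and pumps protons through its membrane arm. The core subunits carry the chemistry, the accessory subunits surround and stabilise them, and assembly factors build the enzyme from modules and then leave it. Most subunits are encoded in the nucleus, and the proton-pumping core of the membrane arm is encoded by mitochondrial DNA.

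Promoter windows are shown for 4 genes on which the results below turn: NDUFS4 and NDUFAF2, lower in MMC-treated 5637 and TCC-SUP cells, NDUFA6, higher in 3 treated lines, and NDUFB11, higher in 2. The sequences are RefSeq's on GRCh38.p14, read 5′ to 3′ on the strand of the gene, from 120 bases before the RefSeq start to 30 bases after it (33 bases for NDUFA6, to keep a match whole). Capitals mark matches to AAGATGGC, a core YY1 motif, and to the CCAAT box, which reads ATTGG where it lies on the other strand.
NDUFS4, chr5:53560519-53560668, plus strand: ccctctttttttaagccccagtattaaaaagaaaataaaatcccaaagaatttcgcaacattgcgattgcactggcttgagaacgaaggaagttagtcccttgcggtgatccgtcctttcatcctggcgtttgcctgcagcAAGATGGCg
NDUFAF2, chr5:60945085-60945234, plus strand: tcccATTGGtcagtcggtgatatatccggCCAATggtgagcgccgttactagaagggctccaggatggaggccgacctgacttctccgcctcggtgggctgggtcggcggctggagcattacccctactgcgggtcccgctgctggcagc
NDUFA6, chr22:42090740-42090892, minus strand: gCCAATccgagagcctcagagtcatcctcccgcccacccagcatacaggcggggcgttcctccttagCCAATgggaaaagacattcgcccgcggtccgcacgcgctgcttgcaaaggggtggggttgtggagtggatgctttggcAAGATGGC
NDUFB11, chrX:47144673-47144822, minus strand: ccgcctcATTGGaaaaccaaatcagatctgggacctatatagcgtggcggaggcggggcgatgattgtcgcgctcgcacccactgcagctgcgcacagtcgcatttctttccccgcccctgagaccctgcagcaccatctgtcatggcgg
NDUFS4 and NDUFA6 hold AAGATGGC just after the start, at positions 22 and 26, and NDUFAF2, NDUFA6 and NDUFB11 hold CCAAT boxes upstream of it. Each of the motifs thus stands in a gene that was lower and in a gene that was higher after MMC, and no match overlaps another. GENCODE places the whole NDUFS4 gene (ENSG00000164258) at chr5:53560633-53683340 and NDUFAF2 (ENSG00000164182) at chr5:60945129-61153037, both on the plus strand of GRCh38.

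RefSeq gave a window of 300 bases, from 250 before to 50 after the start, for 40 of the 48 genes. Searched on both strands, AAGATGGC was found in 6 of these 40 windows (15%), against 3.03% of all 27305 promoters in the table and 3.91% of the 15843 protein-coding ones. The motif of the respiratory gene regulator NRF1, read as GCGCA, any base and GCGC, was found in 7 (17.5%), against 6.28% of all and 8.58% of coding promoters. CCGGAAG, the ETS motif that GABPA reads, stood in 6 (15%), against 10.7% of all and 14.2% of coding promoters, and CCAAT in 11 (27.5%), against 35.7% and 36.4%. These matches describe letters in a window and were not tested as binding sites.

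Library totals ranged from 13791428 to 28821665 counted reads. Reads of the 48 genes made up 0.215% to 0.326% of a library. Of these genes, 47 were tested and 44 averaged at least 10 CPM (the gene's reads relative to the library's total, scaled by the trimmed mean of M-values, TMM). NDUFC2-KCTD14, a readthrough of NDUFC2 and its neighbour, held at most 1 read in any library and was not tested. NDUFV2, NDUFA7 and NDUFA4L2 were tested at low counts. Of the principal NDUFV2 transcript, 82.9% of the exonic bases also belong to AP005263.1 on the same strand, and of NDUFA7 75.9% belong to AC010323.1. Their CPM cannot be read as the level of the gene, since how the authors counted reads in shared exons is not given in the sources used here. The same limit holds for NDUFB8 (71.7% shared), NDUFA11 (67.0%) and NDUFA13 (44.1%). Where genes overlap on opposite strands, as for NDUFB2 (83.4% of the exonic bases), NDUFB11 (45.8%), NDUFA1 (44.5%) and NDUFA2 (24.1%), the values rest on a strand setting that is not given either.

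The 6 CLS-439 libraries stood apart from the other 18. Mitochondrially encoded genes took 0.0238% to 0.0283% of their reads, against 3.21% to 7.40% in T24, 5637 and TCC-SUP. Processed pseudogenes took 2.97% to 3.25% of their reads, against 0.179% to 0.272% in the other lines. Pseudogenes of NDUF genes held 2.33% to 3.00% of all NDUF reads in CLS-439, against 0.0439% to 0.167% elsewhere, and NDUFV2P1 alone averaged 31.1 CPM in CLS-439. What made these libraries differ was not tested. They share the estimate of the spread with the other lines, so counts in T24, 5637 and TCC-SUP are also given without them. Among the other marker genes, 9 of 9 fibroblast genes reached 1 CPM in TCC-SUP, where they summed to 4659 to 12090 CPM, against 3 of 9 and 994 to 1879 CPM in CLS-439, 2 of 9 and 50.9 to 121 CPM in 5637, and 1 of 9 and 2.64 to 8.28 CPM in T24. Of 19 urothelial marker genes, at least 1 CPM was reached by 8 in T24, 15 in 5637, 12 in TCC-SUP and, for CLS-439, 11. Whether any of this bears on the NDUF genes was not tested.

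The first question is how the NDUF genes answered MMC in each line, and most did not pass the test. In T24, 9 of the 47 genes were called at adjusted p under 0.05 (edgeR quasi-likelihood test, Benjamini-Hochberg over 20820 genes), 7 higher and 2 lower. This is 19.1% of them, against 28.6% of all genes tested (15.2% higher and 13.4% lower) and 39.3% of protein-coding genes with at least 10 CPM. In 5637, 9 genes were called, 3 higher and 6 lower, against 29.4% of all genes (15.9% higher and 13.6% lower) and 37.1% of the well-expressed coding genes. In TCC-SUP, 3 genes were called, 1 higher and 2 lower, which is 6.38% against 20.7% of all genes (9.57% higher and 11.1% lower) and 27.9% of the well-expressed coding ones. In CLS-439 none was called, against 0.620% of all genes, although CDKN1A, the cell cycle inhibitor induced by p53, had a log2 fold change of 2.58 there (adjusted p = 1.4e-07). No NDUF gene reached an unadjusted p under 0.05 in CLS-439 with edgeR (7.80% of all genes did), and DESeq2 called 0 and found 1. The share of NDUF genes called was below the background in T24, 5637 and TCC-SUP, a difference that was not tested. Without the CLS-439 libraries in the fit, 9, 7 and 3 genes were called in these lines, beside 29.8%, 30.6% and 20.2% of all genes.

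**Figure D1:**
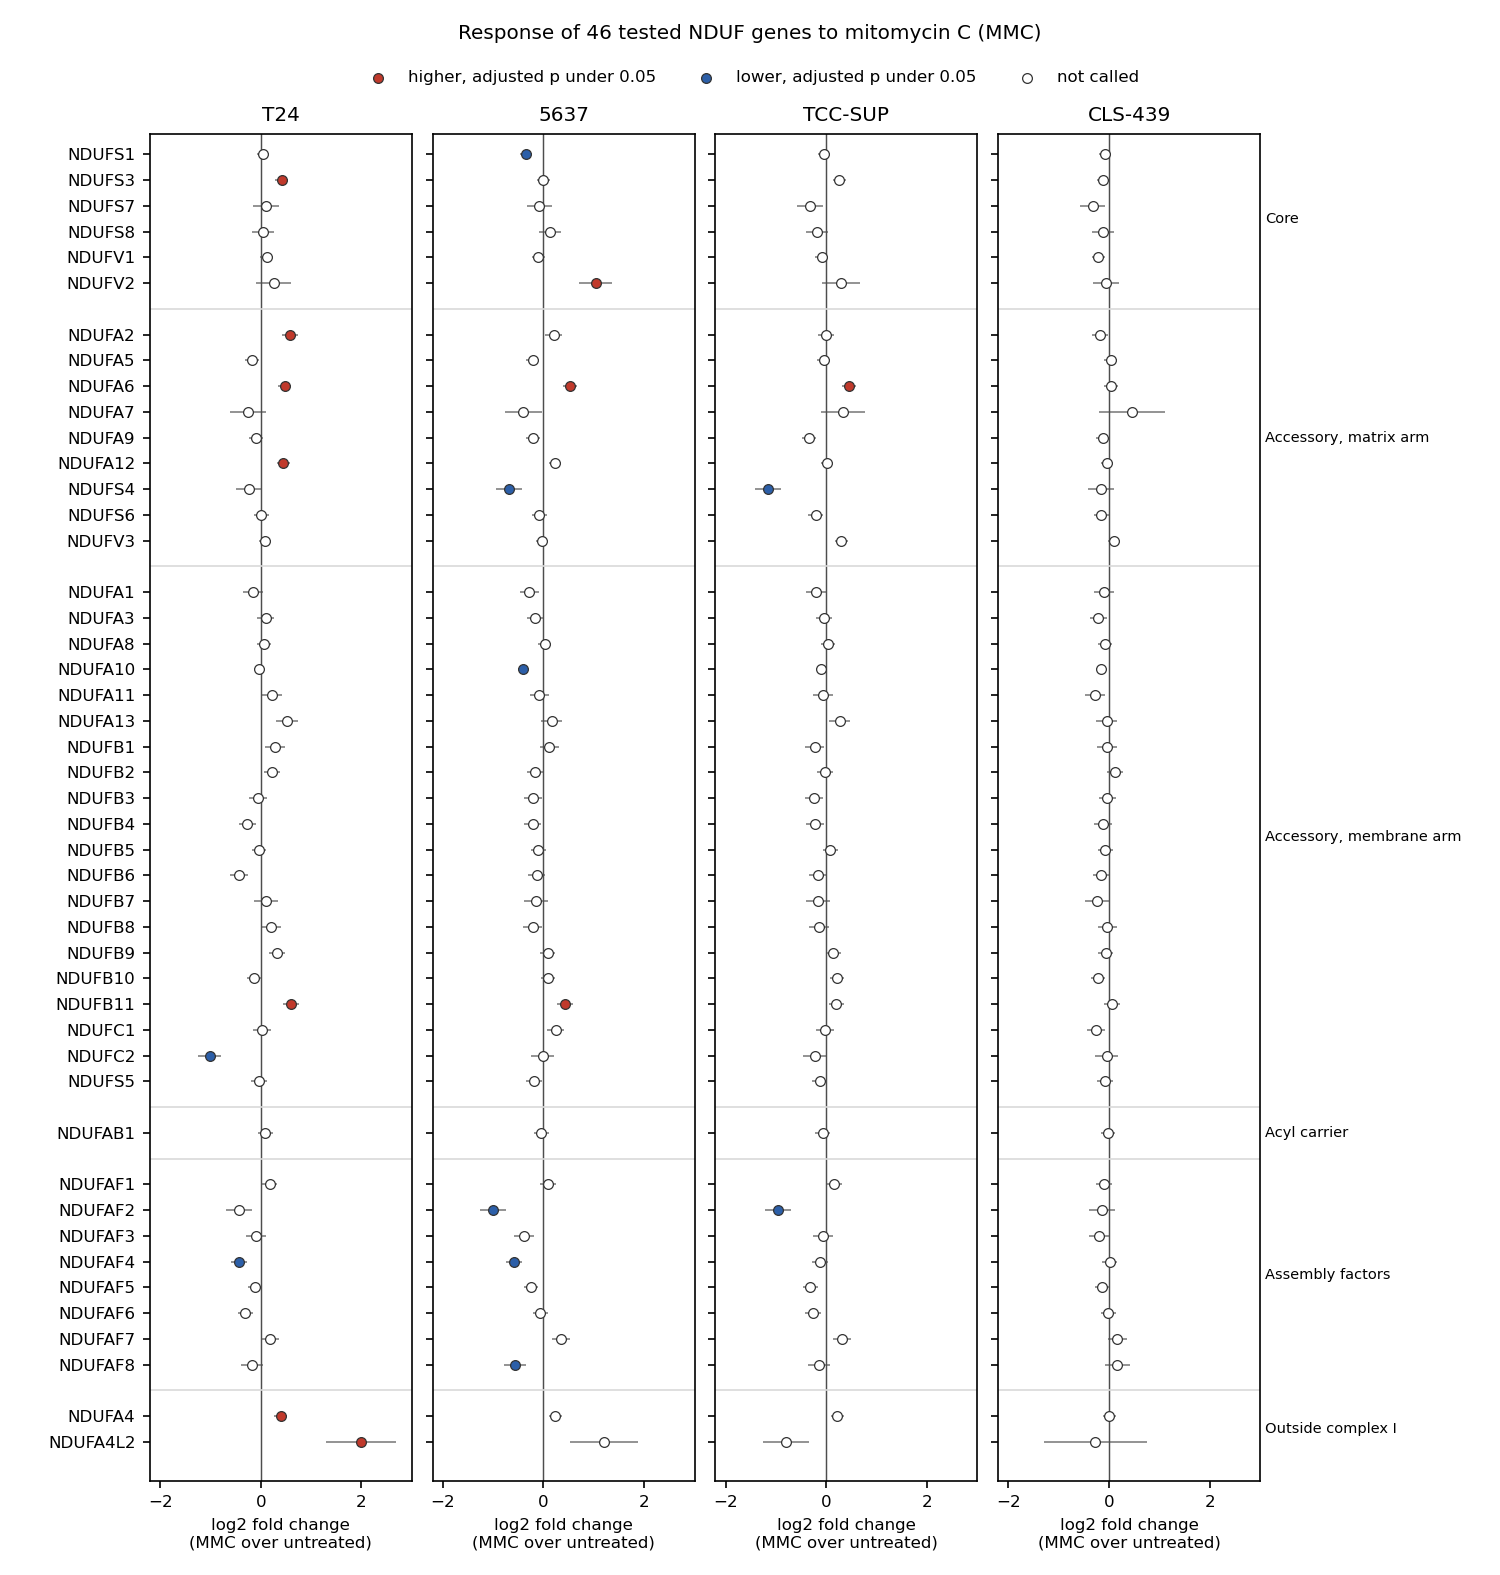
Each point is the log2 fold change of 1 of 46 NDUF genes (MMC over untreated, 3 libraries each) in a line, with its SE as a bar, and genes run down the page by role. Points in red (higher) and blue (lower) passed adjusted p under 0.05: 9 in T24, 9 in 5637 and 3 in TCC-SUP, with 0 for CLS-439, while most others lie close to 0.

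The sizes were small as well. The median log2 fold change over the 47 genes was 0.05 in T24, -0.08 in 5637 and CLS-439, and -0.07 in TCC-SUP, beside a median of 0 over all genes tested in each line. Median absolute log2 fold changes were 0.18, 0.21 and 0.20 for the NDUF genes in T24, 5637 and TCC-SUP, in that order, against 0.45, 0.45 and 0.38 for all genes. Libraries of both sides did not overlap for 9 genes above and 3 below in T24 (34.6% of all genes in either direction), 4 above and 8 below in 5637 (40.5%), and 5 above and 6 below in TCC-SUP (37.7%). The split into higher and lower depends on the scaling. With library size alone, the calls were 9 higher and 1 lower in T24, 5 and 2 in 5637, and 5 and 2 in TCC-SUP. Shares of all genes called under that scaling are not given. Computed from the libraries' mean log2 CPM, with a small count added, the median difference of all genes was 0.19 in T24, 0.12 in 5637 and 0.10 in TCC-SUP under that scaling, against 0.08, -0.03 and -0.04 with TMM. For the NDUF genes these medians were 0.15, 0.05 and 0.05, against 0.04, -0.09 and -0.08 with TMM. By this measure the T24 median of the NDUF genes lay below that of all genes, and by the fitted values above it.

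Over the 3 lines, 15 genes were called at least once, 5 of them in more than 1 line, and none in opposite directions. The same counts over all genes were not made, so these have no background beside them and describe the NDUF genes only. NDUFA6 was called higher in T24, 5637 and TCC-SUP, and NDUFB11 higher in T24 and 5637. NDUFS4 and NDUFAF2 were called lower in 5637 and TCC-SUP, and NDUFAF4 lower in T24 and 5637. The other 32 tested genes were called in none with edgeR, while DESeq2 called NDUFA13 in T24 and NDUFA9 and NDUFV3 in TCC-SUP. In bulk cultures, fewer cells with a transcript and less of it per cell cannot be told apart.

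Core subunits carry the redox centres of the matrix arm. Library values are given in the order of replicates 1, 3 and 4. Of the 7, T24 cells had 1 higher after MMC, 5637 cells 1 higher and 1 lower, and TCC-SUP and CLS-439 cells none. Of all genes, 15.2% were higher and 13.4% lower in T24, 15.9% and 13.6% in 5637, and 9.57% and 11.1% in TCC-SUP. NDUFS3, a scaffold of the ubiquinone-binding module, had 100.2, 78.7 and 85.03 CPM in MMC-treated T24 cells, against 65.4, 67.8 and 64.6 CPM in untreated T24 cells. All 3 treated libraries lay above the untreated ones, with a log2 fold change of 0.42 (adjusted p = 0.0151, SE 0.13). Leaving out either treated replicate 1, untreated replicate 1 or untreated replicate 4 ended that call, with values of 0.32 (adjusted p = 0.0701), 0.39 (adjusted p = 0.0634) and 0.40 (adjusted p = 0.0587). NDUFS1, the largest iron-sulphur subunit, had 129, 102 and 112 CPM in MMC-treated 5637 cells, against 138, 143 and 156 CPM in untreated 5637 cells. The groups did not overlap, and the log2 fold change was -0.35 (adjusted p = 0.0318, SE 0.12), which the omission of treated replicate 1 made -0.48 (adjusted p = 0.00922). The call was lost on leaving out any other single 5637 library, with adjusted p between 0.0503 and 0.157. NDUFV2, at a low count, had 0.936, 1.19 and 1.47 CPM in MMC-treated 5637 cells, against 0.712, 0.531 and 0.506 CPM in untreated 5637 cells, with a log2 fold change of 1.03 (adjusted p = 0.0199, SE 0.33). Most of its exonic bases are shared with another gene, so the value is uncertain, and the call was lost without replicate 3 or 4 of either side (adjusted p from 0.0504 to 0.0927). NDUFV1, NDUFS7 and NDUFS8 had log2 fold changes between -0.32 and 0.12 in the 4 lines, with no call.

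Among the 9 accessory subunits of the matrix arm, 3 were higher in treated T24 cells, and 1 was higher and 1 lower in 5637 and again in TCC-SUP. The shares of all genes were 15.2% higher and 13.4% lower in T24, 15.9% and 13.6% in 5637, and 9.57% and 11.1% in TCC-SUP. NDUFA6, which holds the acyl carrier protein at the ubiquinone module, had 149.8, 136 and 146 CPM in MMC-treated T24 cells, against 116, 109 and 86.6 CPM in untreated T24 cells. In 5637 it had 157, 138 and 132 CPM in treated and 117, 94.7 and 84.7 CPM in untreated cells, and in TCC-SUP 97.6, 109.7 and 95.2 CPM in treated and 74.1, 69.8 and 77.2 CPM in untreated cells. Every treated library lay above every untreated one in these 3 lines. The log2 fold changes were 0.47 (adjusted p = 0.00944, SE 0.13) in T24, 0.53 (adjusted p = 0.00409, SE 0.13) in 5637 and 0.45 (adjusted p = 0.0181, SE 0.13) in TCC-SUP, and 0.04 (adjusted p = 1, SE 0.14) in CLS-439. The T24 call was lost without untreated replicate 4 (0.35, adjusted p = 0.0853). The TCC-SUP call was lost without treated replicate 3 (0.39, adjusted p = 0.102), untreated replicate 1 (0.44, adjusted p = 0.0641) or untreated replicate 3 (0.41, adjusted p = 0.0837). Each of these kept a positive sign.

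NDUFS4, an accessory subunit that joins the NADH-oxidising module late and is a frequent site of Leigh syndrome mutations, had calls in the other direction. It had 39.1, 24.2 and 28.3 CPM in MMC-treated TCC-SUP cells, against 67.3, 68.6 and 68.3 CPM in untreated TCC-SUP cells, and the groups were far apart. In 5637 it had 58.7, 25.2 and 24.97 CPM in treated and 63.2, 59.1 and 52.5 CPM in untreated cells, so treated replicate 1 stood among the untreated libraries while replicates 3 and 4 lay far below them. In T24 it had 82.8, 42.98 and 52.5 CPM in treated and 77.2, 69.3 and 64.1 CPM in untreated cells, again with treated replicate 1 high. The log2 fold changes were -1.16 (adjusted p = 0.00215, SE 0.25) in TCC-SUP, -0.68 (adjusted p = 0.0414, SE 0.25) in 5637 and -0.24 (adjusted p = 0.519, SE 0.25) in T24. Without treated replicate 1 the 5637 value became -1.25 (adjusted p = 6.21e-05) and the T24 value -0.55 (adjusted p = 0.116). The call in 5637 was lost on leaving out any other 5637 library (adjusted p from 0.057 to 0.22), in a fit of 5637 alone (adjusted p = 0.121) and without the CLS-439 libraries (adjusted p = 0.0741). In TCC-SUP it held on leaving out each library of that line in turn.

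The other calls of this arm were in T24. NDUFA2, a thioredoxin-fold subunit of the NADH-oxidising module, had 59.6, 51.4 and 46.3 CPM in MMC-treated T24 cells, against 36.5, 36.6 and 32.6 CPM in untreated T24 cells, a log2 fold change of 0.57 (adjusted p = 0.00858, SE 0.16). NDUFA12, which takes the place of the assembly factor NDUFAF2 in the finished enzyme, had 80.98, 68.8 and 66.7 CPM in MMC-treated T24 cells, against 52.9, 53.97 and 51.5 CPM in untreated T24 cells, a log2 fold change of 0.45 (adjusted p = 0.00769, SE 0.12). Neither gene's groups overlapped, and both calls held on leaving out each T24 library. NDUFA12 had log2 fold changes of 0.23 in 5637 and 0.01 in TCC-SUP, and NDUFA2 of 0.20 and -0.0017, none of them called. NDUFA5, NDUFA7, NDUFA9, NDUFS6 and NDUFV3 were called in no line with edgeR, and DESeq2 called NDUFA9 and NDUFV3 in TCC-SUP.

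**Figure D2:**
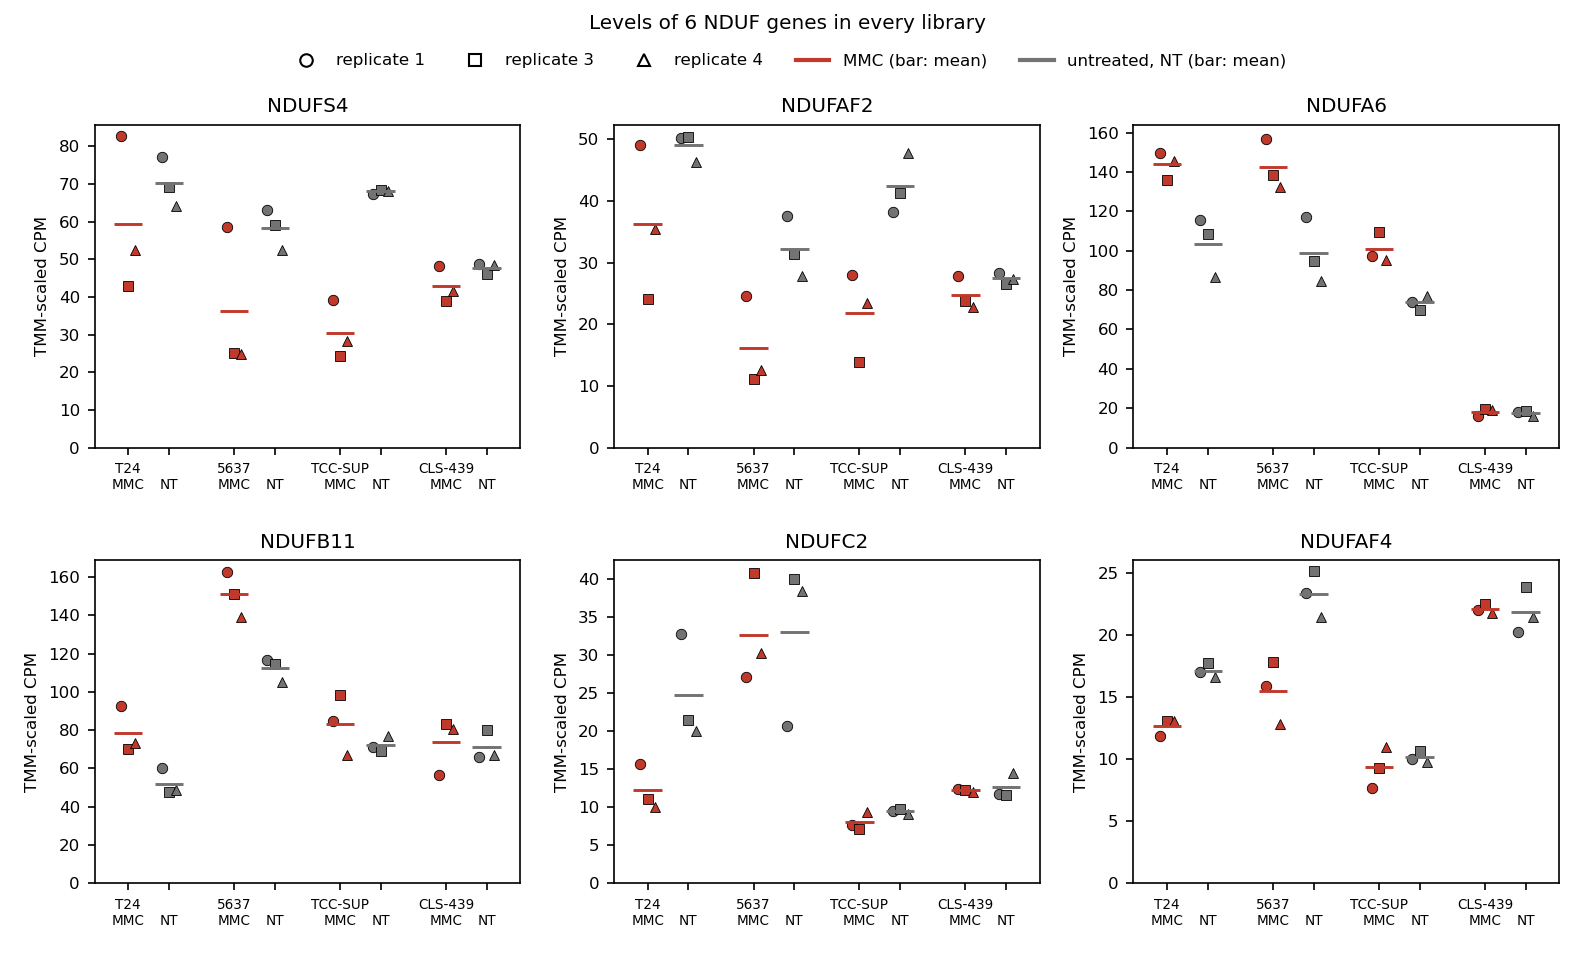
TMM-scaled CPM of 6 NDUF genes in each of the 24 libraries, with MMC left of untreated in each line, symbols for replicate numbers and bars for the mean of 3 libraries. Treated replicate 1 stands near the untreated libraries for NDUFS4 and NDUFAF2 in T24 and, for NDUFS4, in 5637, whereas NDUFA6 is higher in every treated library of T24, 5637 and TCC-SUP.

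The membrane arm has the most accessory subunits and had few calls: 1 of 20 higher and 1 lower in T24, 1 higher and 1 lower in 5637, and none in TCC-SUP or CLS-439. Beside these stand 15.2% higher and 13.4% lower of all genes in T24, 15.9% and 13.6% in 5637, and 9.57% and 11.1% in TCC-SUP. NDUFB11, an X-linked single-pass subunit whose mutations cause heart and skin defects, had 92.8, 70.2 and 73.3 CPM in MMC-treated T24 cells, against 60.1, 47.7 and 48.6 CPM in untreated T24 cells. In 5637 it had 163, 151 and 139 CPM in treated and 117, 115 and 105 CPM in untreated cells. Neither line's groups overlapped, and the log2 fold changes were 0.60 (adjusted p = 0.00583, SE 0.16) in T24 and 0.43 (adjusted p = 0.0401, SE 0.16) in 5637. Leaving out any 1 of the 6 libraries of 5637 ended the call there (adjusted p from 0.0501 to 0.146), whereas each T24 omission left it. RBM10 overlaps NDUFB11 on the other strand, and its part in these values was not tested.

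NDUFC2, a small subunit of the membrane arm, had the most negative log2 fold change of the 47 genes in T24, with 15.6, 11.1 and 10.02 CPM in MMC-treated T24 cells, against 32.7, 21.5 and 19.9 CPM in untreated T24 cells. Untreated replicate 1 stood above the other untreated libraries, and all treated libraries lay below all untreated ones. The log2 fold change was -1.02 (adjusted p = 0.00174, SE 0.23), and it ran from -0.79 without untreated replicate 1 to -1.22 without treated replicate 1, called each time. Its transcript shares 17.1% of its exonic bases with the readthrough gene, which held at most 1 read. The readthrough transcript shares 100% of its own exonic bases with NDUFC2 and KCTD14. Its low count therefore does not show how much of it was present, and its part in the NDUFC2 values was not tested. In 5637 it had 27.05, 40.7 and 30.2 CPM in treated and 20.6, 39.9 and 38.3 CPM in untreated cells, which overlap, with a log2 fold change of -0.01 (adjusted p = 1, SE 0.23). The difference between the T24 and 5637 responses was -1.003 (adjusted p = 0.0846, SE 0.32) with edgeR, short of the threshold, while DESeq2 called it. NDUFA10, a subunit with a nucleoside kinase fold, had 83.4, 79.9 and 80.5 CPM in MMC-treated 5637 cells, against 99.8, 114 and 108 CPM in untreated 5637 cells, a log2 fold change of -0.40 (adjusted p = 0.00376, SE 0.10). The treated values were tightly grouped below the untreated ones, and the call held on leaving out each 5637 library. Of the 17 other membrane arm subunits none was called with edgeR, DESeq2 called NDUFA13 in T24, and the smallest adjusted p values were those of NDUFB6 and NDUFA13 in T24, with log2 fold changes of -0.43 (adjusted p = 0.06, SE 0.17) and 0.52 (adjusted p = 0.0687, SE 0.21). The acyl carrier NDUFAB1 was called in no line, with log2 fold changes from -0.07 to 0.09.

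Of the 8 assembly factors, 1 was lower in T24, 3 were lower in 5637 and 1 in TCC-SUP, beside 13.4%, 13.6% and 11.1% of all genes, and none was called higher in a single line. NDUFAF2, which sits in late assembly intermediates where NDUFA12 will stand, had 24.7, 11.1 and 12.6 CPM in MMC-treated 5637 cells, against 37.5, 31.3 and 27.9 CPM in untreated 5637 cells. In TCC-SUP it had 28.04, 13.9 and 23.5 CPM in treated and 38.2, 41.3 and 47.8 CPM in untreated cells. Treated libraries lay below untreated ones in both lines, with log2 fold changes of -0.9995 (adjusted p = 0.00521, SE 0.26) in 5637 and -0.96 (adjusted p = 0.01, SE 0.26) in TCC-SUP. The call in 5637 held on leaving out each 5637 library, and the one in TCC-SUP was lost without treated replicate 3 (-0.72, adjusted p = 0.0892). In T24 the values were 49.1, 24.1 and 35.5 CPM in treated and 50.3, 50.4 and 46.4 CPM in untreated cells, with treated replicate 1 at the untreated level. The log2 fold change there was -0.44 (adjusted p = 0.22, SE 0.26), and -0.71 (adjusted p = 0.0499) without treated replicate 1.

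NDUFAF4, which with NDUFAF3 helps to build the ubiquinone module, had 11.9, 13.1 and 13.1 CPM in MMC-treated T24 cells, against 17.05, 17.8 and 16.6 CPM in untreated T24 cells. In 5637 it had 15.9, 17.9 and 12.8 CPM in treated and 23.4, 25.2 and 21.5 CPM in untreated cells. No libraries overlapped in either line, and the log2 fold changes were -0.43 (adjusted p = 0.0344, SE 0.15) in T24 and -0.59 (adjusted p = 0.00462, SE 0.15) in 5637. The T24 call was lost on leaving out any 1 of the 6 T24 libraries (adjusted p from 0.0515 to 0.0909), and with library size alone as the scaling (adjusted p = 0.13). The 5637 call held on leaving out each library. In TCC-SUP the log2 fold change was -0.12 (adjusted p = 0.65, SE 0.15). NDUFAF8, the partner of NDUFAF5, had 36.8, 25.1 and 22.8 CPM in MMC-treated 5637 cells, against 43.9, 42.5 and 39.1 CPM in untreated 5637 cells, with a log2 fold change of -0.57 (adjusted p = 0.0477, SE 0.21). Treated replicate 1 was again the highest treated library, and without it the value was -0.84 (adjusted p = 0.00444). Leaving out any other 5637 library, or all CLS-439 libraries, ended the call (adjusted p from 0.0648 to 0.208 and 0.0672). NDUFAF1, NDUFAF3, NDUFAF5, NDUFAF6 and NDUFAF7 were called in no line.

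Of the genes outside complex I, NDUFA4, now assigned to complex IV, had 114, 106 and 100.3 CPM in MMC-treated T24 cells, against 71.5, 89.3 and 82.9 CPM in untreated T24 cells, without overlap and with a log2 fold change of 0.39 (adjusted p = 0.0296, SE 0.13). Its log2 fold changes were 0.24 in 5637 and 0.22 in TCC-SUP, neither called, and the T24 call was lost on leaving out treated replicate 1 or 3 or untreated replicate 1 or 4 (adjusted p from 0.0665 to 0.179). NDUFA4L2, a hypoxia-induced relative of NDUFA4, had only 1.62, 0.227 and 0.349 CPM in MMC-treated T24 cells, against 0.310, 0.137 and 0.0755 CPM in untreated T24 cells. Treated replicate 1 stood above all others and treated replicate 3 lay within the untreated range. The log2 fold change was 1.99 (adjusted p = 0.0334, SE 0.69), and 0.70 (adjusted p = 0.522) without treated replicate 1. The call was also lost without untreated replicate 3 (adjusted p = 0.0921) or untreated replicate 4 (adjusted p = 0.135). In TCC-SUP, where it was highest, it had 2.43, 2.41 and 0.980 CPM in treated and 4.42, 2.13 and 3.52 CPM in untreated cells, a log2 fold change of -0.80 (adjusted p = 0.232, SE 0.45).

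Treated replicate 1 also differed from its fellows across the family. In treated T24 cells it held the highest of the 3 values for 39 of 47 genes, and in treated 5637 cells for 35. The same count over all genes was not made, but treated replicate 1 stood apart over all genes as well. In treated T24 cells, chi-square per gene was 116 and 65.5 for replicate 1 against 3 and 4, and 19.3 for 3 against 4. In treated 5637 cells these values were 69.4, 45.8 and 20.7. Untreated replicate 1 held the highest value for 28 of 47 genes in T24 and 30 in 5637. In TCC-SUP the highest treated library was replicate 3, for 22 genes. Without the replicate 1 libraries of all groups, 4 genes were called higher and 7 lower in T24, 3 higher and 11 lower in 5637, and 1 higher and 5 lower in TCC-SUP. The share of all genes called in that fit is not given, so these counts have no background beside them. Single omissions moved the counts by over 1.5 times in these cases: to 4 in T24 without untreated replicate 4, to 5 in 5637 without untreated replicate 1 and to 4 there without replicate 3 or 4 of either side, and in TCC-SUP to 5 without treated replicate 1 and to 1 without treated replicate 3.

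Other settings ended some of these calls. Without a filter on low counts, NDUFA12, NDUFS3, NDUFA4 and NDUFAF4 in T24 missed the threshold (adjusted p from 0.0768 to 0.176), as did NDUFB11, NDUFA10 and NDUFS1 in 5637 (0.0791 to 0.112) and NDUFA6 in TCC-SUP (0.0753). A fit of T24 alone did not call NDUFS3, NDUFA4 or NDUFAF4 (0.0548 to 0.0995), and a fit of 5637 alone did not call NDUFS1 or NDUFS4 (0.0587 and 0.121). NDUFAF4 in T24 also missed it with library size alone (0.13). In 5637, NDUFS4, NDUFAF8, NDUFA10 and NDUFS1 missed the threshold with library size alone (0.0578 to 0.22), and NDUFS4 and NDUFAF8 with the size factors of DESeq2 in edgeR (0.0511 to 0.055).

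Averaged over T24, 5637 and TCC-SUP, 18 of 47 genes were called, 9 higher and 9 lower, against 43.2% of all genes tested (23.3% higher and 19.9% lower) and 57.3% of the well-expressed coding genes. With library size alone the split was 14 higher and 3 lower. Without the CLS-439 libraries, which share the estimate of the spread, 15 were called, all among the 18, beside 47.6% of all genes. The largest mean responses with at least 10 CPM were NDUFAF2 at -0.80 (adjusted p = 0.000105, SE 0.15), NDUFS4 at -0.69 (adjusted p = 0.000339, SE 0.14) and NDUFC2 at -0.42 (adjusted p = 0.0122, SE 0.13) on the lower side. On the higher side they were NDUFA6 at 0.48 (adjusted p = 1.56e-05, SE 0.08), NDUFB11 at 0.41 (adjusted p = 0.000642, SE 0.09) and NDUFA13 at 0.32 (adjusted p = 0.0375, SE 0.12). NDUFA13 shares 44.1% of its exonic bases with another gene on the same strand, so its CPM cannot be read as the level of the gene. The mean also called NDUFA9, NDUFB6 and NDUFAF5 lower and NDUFAF7 higher, with log2 fold changes from -0.24 for NDUFB6 to 0.28 for NDUFAF7, none of which passed in a single line with edgeR (DESeq2 called NDUFA9 in TCC-SUP). NDUFAF5 hydroxylates NDUFS7, and NDUFAF7 is a methyltransferase.

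Whether the lines differ in their response was tested directly. Among T24, 5637 and TCC-SUP no NDUF gene passed (0 of 47), against 6.86% of all genes tested, nor without the CLS-439 libraries in the fit (0 of 47, against 5.22%). The smallest adjusted p was 0.0603, for NDUFA4L2, followed by 0.106 for NDUFC2, and 3 genes had an unadjusted p under 0.05 (21.7% of all genes did). DESeq2 called 2, NDUFA4L2 and NDUFA10. With CLS-439 added, 0 of 47 passed, against 16.0% of all genes, 7 had an unadjusted p under 0.05 (30.9% of all genes did), and DESeq2 called 7. Between pairs of lines 0 passed as well, where 3.47% of all genes differed for T24 minus 5637, 3.79% for T24 minus TCC-SUP and 2.70% for 5637 minus TCC-SUP. For NDUFS4 the response in T24 minus that in TCC-SUP was 0.91 (adjusted p = 0.164, SE 0.35). A call in 1 line and none in another, as for NDUFS4, NDUFAF2 or NDUFB11, therefore did not come with a difference between lines that passed. A miss of the threshold does not show that the lines responded alike.

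NDUFS4 and NDUFAF2 are both long genes, spanning 122.7 and 207.9 kb on chromosome 5, and MMC responses were read against gene span. Only 5 of the 47 tested genes span over 50 kb, the others being NDUFA12, NDUFA10 and NDUFAF6. Of these 5, none was lower in T24, 3 were lower in 5637 (NDUFS4, NDUFAF2 and NDUFA10) and 2 in TCC-SUP (NDUFS4 and NDUFAF2). Of all genes over 50 kb, 25.3%, 27.8% and 28.9% were lower in T24, 5637 and TCC-SUP, against 5.79%, 5.82% and 2.76% of genes under 10 kb. The medians of the 5 long NDUF genes were -0.24, -0.40 and -0.26, beside -0.18, -0.20 and -0.31 for all long genes. Of the others, 24 span 10 to 50 kb and 18 under 10 kb. Of these 18 genes 5, 2 and 1 were higher and 1, 2 and 0 lower in T24, 5637 and TCC-SUP. In the same order, 13.5%, 16.7% and 9.73% of all genes under 10 kb were higher. Of the 24 genes, 1, 1 and 0 were higher and 1, 1 and 0 lower. Of all genes of that span, 21.6%, 21.4% and 14.8% were higher and 11.3%, 9.64% and 4.88% lower. Across the 47 genes Spearman's rho of span and log2 fold change was -0.16 in T24, -0.13 in 5637 and -0.05 in TCC-SUP, with 0.05 for CLS-439, as a description over genes that share libraries. NDUFAF6, the longest at 220.7 kb, and NDUFA12, at 106.7 kb, were called lower in no line, although every treated T24 library of NDUFAF6 lay below the untreated ones, with a log2 fold change of -0.31 (adjusted p = 0.133).

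**Figure D3:**
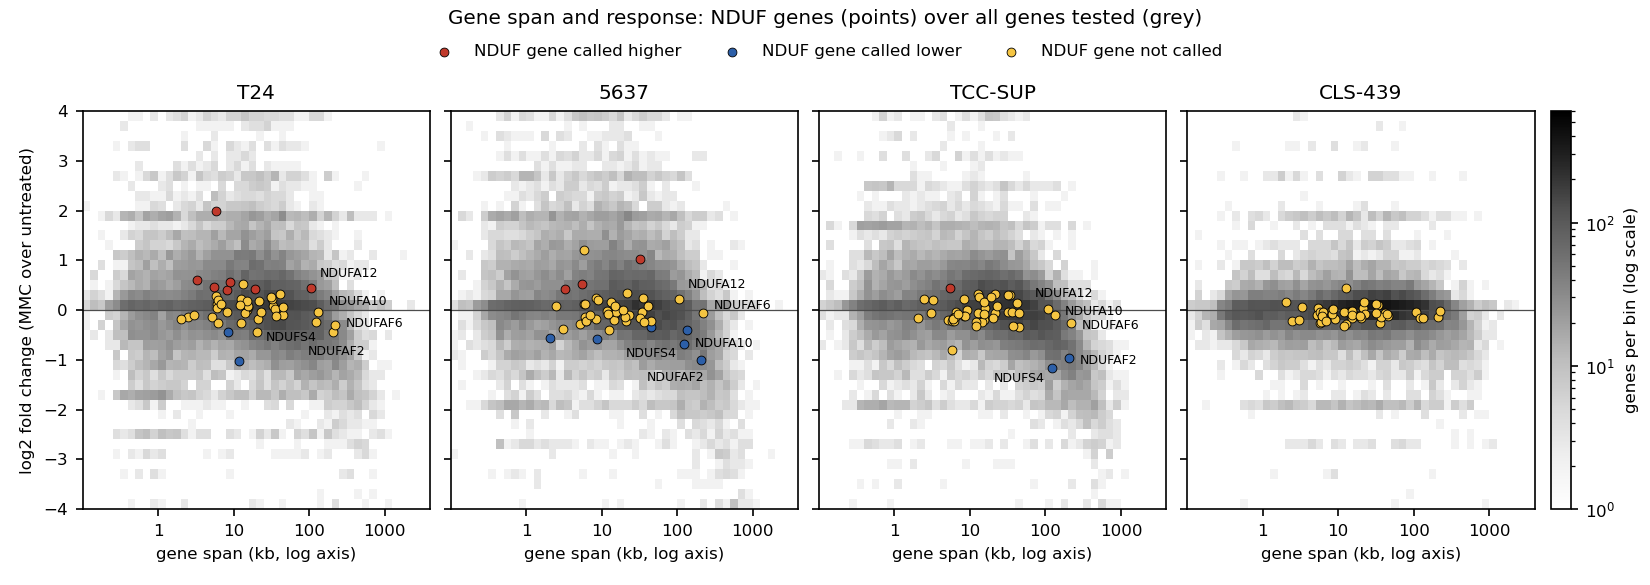
Log2 fold change (MMC over untreated) against gene span on a log axis, with NDUF genes as points over the density of all genes tested in grey (values beyond 4 drawn at the edge). In 5637 and TCC-SUP the long NDUFS4 and NDUFAF2 lie low, where many other long genes also lie below 0, while most NDUF genes span less than 50 kb and lie near 0.

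Other genes of the pathway gave a background for these responses. For this list and those that follow, the shares of all genes were 15.2% higher and 13.4% lower in T24. They were 15.9% and 13.6% in 5637, and 9.57% and 11.1% in TCC-SUP. Of 13 further complex I assembly factors, 0 were higher and 1 lower in T24, 2 lower in 5637 and 2 lower in TCC-SUP. NUBPL, which delivers iron-sulphur clusters to complex I, was lower in all 3, at -1.56 (adjusted p = 7.02e-05, SE 0.26) in T24, -1.98 (adjusted p = 4.47e-06, SE 0.26) in 5637 and -1.75 (adjusted p = 7.77e-05, SE 0.26) in TCC-SUP. It had 4.59, 2.56 and 2.63 CPM in MMC-treated 5637 cells, against 11.8, 13.8 and 13.01 CPM in untreated 5637 cells. The others were AIFM1 in 5637, at -0.45 (adjusted p = 0.0173, SE 0.14), and TMEM126A in TCC-SUP, at -0.69 (adjusted p = 0.018, SE 0.20). Responses of this list, NUBPL among them, were not read against gene span, so a part of span in them was not tested. Of the 7 complex I subunits encoded by mitochondrial DNA, 3 were lower in T24, MT-ND6 at -1.41 (adjusted p = 0.000113, SE 0.23), MT-ND4L at -0.80 (adjusted p = 0.000481, SE 0.16) and MT-ND2 at -0.40 (adjusted p = 0.0451, SE 0.15). MT-ND6 was the only one lower in 5637, at -0.81 (adjusted p = 0.0109, SE 0.23), and none was called in TCC-SUP. Overlaps of these mitochondrial genes with others were not examined, and the strand setting of the counts is not given.

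Of 38 nuclear subunits of complexes II to V, 1 was higher and 4 lower in T24, 1 higher and 8 lower in 5637, and 1 higher and 2 lower in TCC-SUP. ATP5F1A, the alpha subunit of ATP synthase, was lower in all 3 lines, at -0.35 (adjusted p = 0.0158, SE 0.11) in T24, -0.72 (adjusted p = 2.39e-05, SE 0.11) in 5637 and -0.40 (adjusted p = 0.0101, SE 0.11) in TCC-SUP. SDHA, the flavoprotein of complex II, was higher in T24 at 0.28 (adjusted p = 0.0263, SE 0.09) and in 5637 at 0.44 (adjusted p = 0.000727, SE 0.09). Of 14 regulators of respiratory genes, 1 was higher and 4 lower in T24, 6 were lower in 5637, and 1 was higher and 4 lower in TCC-SUP. NRF1 was lower in all 3 lines, with 20.4, 19.9 and 19.1 CPM in MMC-treated 5637 cells, against 32.1, 34.2 and 31.7 CPM in untreated 5637 cells and log2 fold changes of -0.63 (adjusted p = 0.000753, SE 0.13) in T24, -0.72 (adjusted p = 0.000175, SE 0.13) in 5637 and -0.52 (adjusted p = 0.00652, SE 0.13) in TCC-SUP. PPARGC1B, a coactivator of respiratory genes, was lower as well, at -2.45 (adjusted p = 4.75e-06, SE 0.32), -2.10 (adjusted p = 1.56e-07, SE 0.22) and -0.91 (adjusted p = 0.0121, SE 0.25) in the same order. Neither list's change was tested for a link to the NDUF genes. CDKN1A rose in every line, with 218, 154 and 175 CPM in MMC-treated T24 cells, against 38.2, 31.1 and 21.6 CPM in untreated T24 cells. MDM2, the p53 target that degrades p53, was called in CLS-439 alone, at 1.53 (adjusted p = 4.35e-06, SE 0.15), and no test compared that with the other lines here.

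The lines also differed before treatment. In untreated cells the highest line of an NDUF gene exceeded the lowest by a median of 2.04-fold over the 44 genes with at least 10 CPM, and by 1.58-fold among T24, 5637 and TCC-SUP alone. CLS-439 was the highest line for 18 of the 44 genes and TCC-SUP the lowest for 17. The same counts and median folds over all genes were not made, so these have no background beside them. The 18 include NDUFA11, NDUFB8 and NDUFA13, whose CPM cannot be read as the level of the gene because of shared exons. Per kilobase of the principal transcript, the highest NDUF level was that of NDUFS5, a subunit on the intermembrane space side, in T24 (257 ± 29.8 CPM per kb), 5637 (229.9 ± 40.02) and TCC-SUP (425 ± 27.2; SD, n = 3). In CLS-439 it was that of NDUFB9, at 206 ± 10.8 CPM per kb, and the next, NDUFB7 at 192 ± 7.59, had an interval of mean ± SD that overlapped it. In T24 the next genes after NDUFS5, NDUFS8 at 141 ± 14.5 and NDUFB9 at 139.7 ± 3.49 CPM per kb, likewise lay within their spread of each other. By role, the median CPM per kb of the 8 assembly factors was 14.6 in T24, 10.7 in 5637 and 9.48 in TCC-SUP, with 10.8 for CLS-439. That of the 20 membrane arm subunits was 43.2, 61.1, 52.8 and 53.9, and that of the 7 core subunits 36.3, 52.9, 43.1 and 60.4, in the same order. The median of the assembly factors was below both others in each of the 4 lines.

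**Figure D4:**
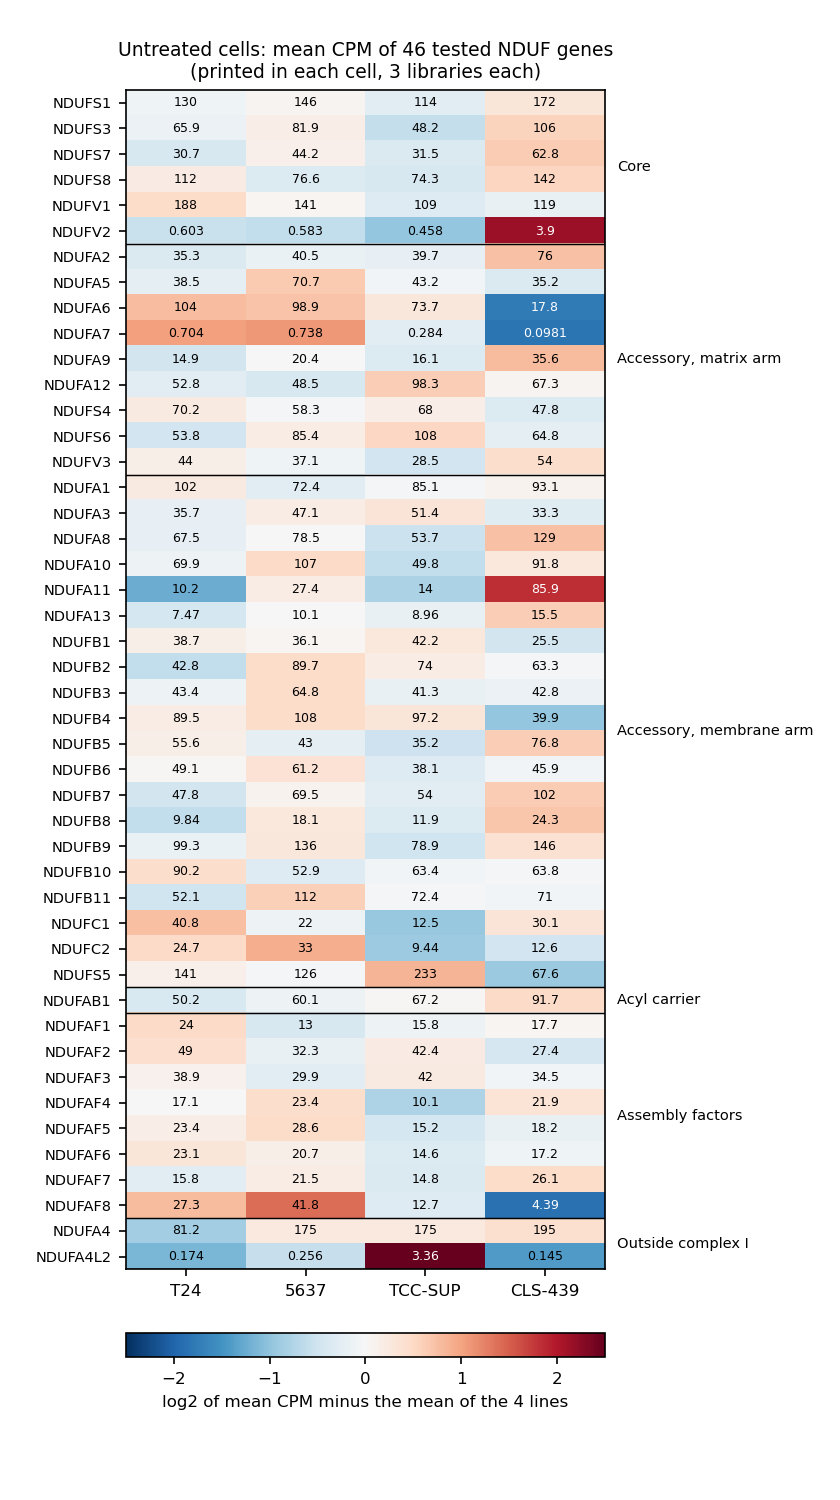
Mean CPM of 46 tested NDUF genes in the untreated cells of each line (printed numbers, n = 3 libraries), with colours for the log2 level relative to the mean of the 4 lines and genes ordered by role. NDUFAF8 and NDUFA6 are lowest and NDUFA11 highest in CLS-439, NDUFS5 is highest in TCC-SUP, and NDUFA4 lowest in T24.

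Each untreated line was then set against the mean of the other 3, on the log2 scale, in comparisons that share libraries. In T24, 27 of 47 genes were called, 10 higher and 17 lower, against 50.7% of all genes tested (27.9% higher and 22.8% lower). In 5637, 21 were called, 15 higher and 6 lower, against 57.0% (32.5% higher and 24.5% lower), and in TCC-SUP 30, 9 higher and 21 lower, against 61.3% (35.2% higher and 26.1% lower). In CLS-439, 35 were called, 22 higher and 13 lower, against 74.6% (40.4% higher and 34.2% lower). In total, the NDUF calls were near these backgrounds in T24, TCC-SUP and CLS-439 and below it in 5637. By direction they departed from it. Lower calls were a larger share, and higher calls a smaller share, than among all genes in T24 and TCC-SUP. In CLS-439 the reverse held by a small margin, and in 5637 lower calls were the smaller share. None of these differences was tested. With library size alone the split was 13 and 11 in 5637 and 25 and 7 in CLS-439. Without the CLS-439 libraries the calls were 9 higher and 11 lower in T24 (25.2% and 24.8% of all genes), 18 and 5 in 5637 (28.9% and 27.0%), and 5 and 16 in TCC-SUP (33.6% and 25.8%), of which 15, 15 and 20 were also called with them. Lower calls in T24 were then no longer a larger share than among all genes, while those in TCC-SUP still were. Higher calls stayed the smaller share in both lines.

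Untreated T24 cells were lowest of the lines for NDUFA4 and high for NDUFC1. NDUFA4 had 71.5, 89.3 and 82.9 CPM in T24, against means of 175 CPM in 5637, 195 CPM in CLS-439 and 175 CPM in TCC-SUP, a log2 difference of -1.16 (adjusted p = 7.57e-09, SE 0.12). NDUFC1, a small membrane arm subunit, had 47.4, 37.7 and 37.3 CPM in T24, above every library of the other lines, with a difference of 1.01 (adjusted p = 7.45e-07, SE 0.14). NDUFB2 and NDUFB8, both of the membrane arm, were lower in T24, at 46.6, 43.5 and 38.2 CPM (-0.81) and 9.88, 10.6 and 9.09 CPM (-0.82, log2). NDUFA11, at 10.2, 10.3 and 10.04 CPM, was lower by the same measure (-1.65). Most exonic bases of NDUFA11 and of NDUFB8 are shared with another gene on the same strand. The CPM of both therefore cannot be read as the level of the gene. NDUFB2 shares 83.4% of its exonic bases on the opposite strand, so its value rests on the strand setting. NDUFA6, NDUFAF8, at 30.1, 28.7 and 23.3 CPM, and NDUFC2 were higher in T24, by 1.03, 1.04 and 0.65. Without the CLS-439 libraries the differences were 0.30 (adjusted p = 0.0443), 0.26 (adjusted p = 0.3) and 0.50 (adjusted p = 0.0605) in the same order, so that NDUFA6 still passed and the others did not. Of the 8 assembly factors, 4 were higher in T24 and none lower, beside 27.9% higher and 22.8% lower of all genes.

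In 5637, NDUFAF8 stood out with 43.9, 42.5 and 39.1 CPM, against 27.3 ± 3.59 CPM in T24, 12.7 ± 1.21 CPM in TCC-SUP and 4.39 ± 0.494 CPM in CLS-439 (SD, n = 3). Its log2 difference was 1.86 (adjusted p = 4.16e-10, SE 0.16), and 1.13 (adjusted p = 6.87e-05) without the CLS-439 libraries. NDUFC2 had 20.6, 39.9 and 38.3 CPM and a difference of 1.20 (adjusted p = 2.09e-06, SE 0.18), its replicate 1 lying within the range of T24. NDUFA5, of the matrix arm, had 67.9, 68.8 and 75.3 CPM, above all libraries of the other lines, and a difference of 0.86 (adjusted p = 6.32e-08, SE 0.10). On the lower side the differences were smaller: NDUFAF1, a factor of the membrane arm intermediate, had 12.6, 14.1 and 12.3 CPM (-0.54, adjusted p = 0.00127, SE 0.13), NDUFA12 54.9, 45.7 and 44.8 CPM (-0.54) and NDUFB10 57.03, 51.1 and 50.5 CPM (-0.43). NDUFA6, at 117, 94.7 and 84.7 CPM, and NDUFS8, at 84.8, 72.7 and 72.2 CPM, were called with CLS-439 in the contrast and not without it (adjusted p = 0.316 and 0.187).

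TCC-SUP had the most lower calls with all lines in the contrast. There 5 of 7 core subunits and 5 of 8 assembly factors were lower and none of either higher. The shares of all genes were 26.1% lower and 35.2% higher. NDUFC1 had 10.7, 10.96 and 16.02 CPM and a difference of -1.26 (adjusted p = 1.26e-07, SE 0.16). NDUFC2 had 9.53, 9.70 and 9.08 CPM (-1.20, adjusted p = 1.34e-05, SE 0.20) and NDUFAF4 10.04, 10.7 and 9.74 CPM (-1.02, adjusted p = 2.62e-07, SE 0.13), each below every library of the other lines. NDUFS5 was the main exception, with 228, 221 and 249.6 CPM, against 141 ± 16.3 CPM in T24, 126 ± 21.9 CPM in 5637 and 67.6 ± 5.30 CPM in CLS-439 (SD, n = 3), a difference of 1.13 (adjusted p = 6.34e-09, SE 0.12). NDUFA12 had 97.4, 93.96 and 103 CPM (0.82, adjusted p = 5.54e-08, SE 0.10) and NDUFS6, a zinc-binding subunit, 105, 98.5 and 120.1 CPM (0.69, adjusted p = 1.16e-05, SE 0.12), both above all other untreated libraries. NDUFA3, at 51.2, 48.4 and 54.5 CPM, and NDUFA11, at 13.6, 14.1 and 14.3 CPM, lost their calls without CLS-439 (adjusted p = 0.0563 and 0.235). NDUFA4L2, low everywhere, was highest here, with 4.42, 2.13 and 3.52 CPM and a difference of 4.12 (adjusted p = 4.73e-09, SE 0.42).

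In CLS-439, whose libraries stand apart, the largest untreated differences among the genes with at least 10 CPM were seen. NDUFA6 had 18.2, 18.8 and 16.2 CPM, against 104 ± 15.2 CPM in T24, 98.9 ± 16.7 CPM in 5637 and 73.7 ± 3.73 CPM in TCC-SUP (SD, n = 3), a difference of -2.36 (adjusted p = 1.5e-14, SE 0.13). NDUFAF8 had 4.01, 4.20 and 4.94 CPM and a difference of -2.48 (adjusted p = 1.13e-10, SE 0.21). NDUFB4 and NDUFS5 were lower too, at 45.3, 39.6 and 34.98 CPM (-1.29) and 73.6, 63.4 and 65.9 CPM (-1.25). All 4 lay below every other untreated library. NDUFA11, which shares 67.0% of its exonic bases with another gene, was higher, with 75.2, 89.2 and 93.4 CPM, against 10.2 ± 0.124 CPM in T24, 27.4 ± 0.409 CPM in 5637 and 13.99 ± 0.362 CPM in TCC-SUP (SD, n = 3), a difference of 2.45 (adjusted p = 8.3e-14, SE 0.15). NDUFA9, which lies by the ubiquinone site, had 37.7, 34.2 and 34.7 CPM (1.07, adjusted p = 1.43e-09, SE 0.11), NDUFA2 74.3, 79.6 and 74.3 CPM (0.98) and NDUFA8 145, 121 and 120.5 CPM (0.97). Of the 7 nuclear core subunits 6 were higher and 1 lower, with a median difference of 0.73. All 7 mitochondrially encoded subunits were lower, with a median of -10.95. The shares of all genes were 40.4% higher and 34.2% lower. The 6 higher core subunits include NDUFV2, whose CPM cannot be read as the level of the gene because of its shared exons. Most nuclear core subunits and all mitochondrial ones were thus called in opposite directions there, while NDUFA6, NDUFB4 and NDUFS5 were lower like the mitochondrial ones. These values stand beside the low mitochondrial and high pseudogene shares given above, whose part in these values was not tested.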

How the data were processed

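Poly(A) RNA libraries made with a stranded TruSeq kit, per the labels' protocols, were deposited by the authors as raw read counts per Ensembl gene for 24 libraries. Tools listed in the submitters' processing notes are STAR 2.5.3a and featureCounts 1.6.2, with the build GRCh38. Which annotation and strand setting were used, and how reads with several hits were counted, is not given in the sources used here. Of the 58381 gene IDs, 58216 were found in GENCODE 29, from which symbols, gene types, spans and overlaps were taken.

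Counts were fitted with edgeR 4.0.16 (limma 3.58.1, R 4.3.3) in a single model of the 8 group means over all libraries, after filterByExpr and TMM scaling. Quasi-likelihood tests used a robust dispersion, and p-values were adjusted by the Benjamini-Hochberg method over 20820 genes. Calls were made at adjusted p under 0.05. CPM are counts relative to the TMM-scaled library size. The pipeline was tested on simulated data with known fold changes. Replicates within each group differed by more than sampling noise in a chi-square comparison, so each was counted as a sample. Library totals ran from 13791428 to 28821665, and the lowest total of NDUF reads was 40041.

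Values of 1 of the 48 genes are not reported here, though counts include it. The genes and lists were chosen with earlier results of these data known. Values of every library were given for up to 6 called NDUF genes each way per line's response and up to 4 per untreated line, where the higher group had at least 10 CPM, and further genes were named after their values were seen. A promoter match was an exact run of letters in RefSeq's GRCh38.p14 windows. Alternatives were the RLE and library-size scalings, no filter on low counts, DESeq2 1.42.0, fits of each line alone, replicate blocks, and omission of CLS-439 and of single libraries. Same-numbered libraries were taken as pairs in a line where every pair's deviations correlated above 0.1, which held in 5637 (lowest 0.20) and CLS-439 (0.147) and not in T24 (-0.284) and TCC-SUP (-0.276).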

Additional observations from a re-analysis of the deposited data

How the results depend on the processing

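Counts of NDUF genes called moved with the settings. Shares of all genes called are given for the main fit and the fit without CLS-439 alone. Counts under any other setting, here and above, have no background beside them and describe the NDUF genes only. In T24 (9 calls) no filter on low counts gave 5, a fit of T24 alone 5, and the omission of libraries 1 to 11. In 5637 (9 calls) no filter gave 5 and omissions 0 to 14. In TCC-SUP (3 calls) library size alone gave 7, DESeq2 5 and omissions 0 to 6, and in CLS-439 every setting gave 0. The mean response of 3 lines (18 calls) gave 11 with no filter and 5 to 25 under omissions. For each of these, omitting replicate 3 or replicate 4 from all groups gave the lowest count, with fewer libraries per group by construction.

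For the difference among 3 lines (0 calls), no filter gave 3, DESeq2 2, and omissions 0 to 1. For T24 minus 5637 (0 calls) these settings gave 1, 2 and 0 to 1, for T24 minus TCC-SUP (0 calls) 2, 1 and 0 to 1, and for 5637 minus TCC-SUP (0 calls) no filter gave 1. For the difference among the 4 lines (0 calls), library size alone gave 3, no filter 4, DESeq2 7 and omissions 0 to 4. In untreated cells omissions gave 16 to 27 calls in T24 (27 with all libraries), 14 to 25 in 5637, 19 to 33 in TCC-SUP (30 with all) and 30 to 35 in CLS-439.

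With the replicate number as a block within each line, 12 genes were called in T24 (8 higher and 4 lower), 9 in 5637, 3 in TCC-SUP and 22 for the mean of 3 lines. In 5637 and CLS-439, where the numbers were taken as pairs, the block changed no call. In T24 and TCC-SUP not every same-numbered pair correlated above 0.1, so the block is a hint there. The T24 pairs of replicates 1 and 4 did, at 0.477 and 0.538, and that of replicate 3 did not (-0.284). In CLS-439, treated replicate 4 correlated better with untreated replicate 3 (0.229) than with untreated replicate 4 (0.147). The replicate block gave, for the difference among 3 lines, 1 call with a number shared by all lines and 2 within lines. For T24 minus 5637 it gave 1 within lines, for T24 minus TCC-SUP 2 shared and 1 within lines, and for the 4 lines 2 shared and 3 within lines.

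Of the 323 alternative values of named MMC responses, 222 kept direction and call, 101 kept the direction and missed the threshold, and 0 changed sign. Of the 376 alternative values of named untreated differences, 361 kept both, 15 missed the threshold and 0 changed sign. Apart from the effects of fewer genes or libraries, the cause of these moves was not tested. NDUFA7, NDUFA4L2 and NDUFV2 were too low for their levels to be read closely.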
